A study of Mus musculus with 4 samples.

Results

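A group of 9 genes that mark the primitive streak and the mesendoderm was followed in a mouse embryonic stem cell (mESC) line before and after it came to maintain its telomeres without telomerase. The genes were *T*, *Mixl1*, *Eomes*, *Gsc*, *Evx1*, *Lhx1*, *Mesp1*, *Fgf8* and *Sp5*. They were chosen by name, with earlier results of these data known. Each of the 9 symbols was found once among the 53379 genes of the files. DKO741, the line used, goes back to E14 mESCs in which both copies of *Terc*, the gene of the telomerase RNA, were knocked out, so the PD100 and the PD800 cells carried the same knock-out. PD100 stands for pre-ALT cells at population doubling 100 and PD800 for post-ALT cells at population doubling 800 (ALT is the alternative lengthening of telomeres), where the labels also speak of passages, and each group held 2 libraries that the study calls biological duplicates. All cells were of 1 line, and cells with intact *Terc* were not analysed here, so time in culture and the ALT state cannot be told apart. *Terc* gave 1 count in the first PD100 library and 0 in the other 3.

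In the embryo, the primitive streak is the furrow through which epiblast cells leave the surface layer to become mesoderm and definitive endoderm. WNT and Nodal signals switch on the genes of the streak, with *T* (Brachyury) and *Eomes* among the first, and FGF signals let the cells move away. Undifferentiated mESCs express these genes at low levels, and they serve as a readout when such cells start to differentiate. The members fall into T-box transcription factors (*T*, *Eomes*), homeobox factors (*Gsc*, *Mixl1*, *Lhx1*, *Evx1*), the basic helix-loop-helix factor *Mesp1*, the secreted ligand *Fgf8* and *Sp5*, a zinc finger factor that is a direct target of WNT/β-catenin signalling.

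The 9 genes did not move together. *Eomes* and *Gsc* were higher in PD800 cells, by 3.94-fold and 11.9-fold, and *Sp5* was 12.9-fold lower. *T* and *Mixl1* had few counts and did not pass the test, and *Evx1*, *Lhx1*, *Mesp1* and *Fgf8* had too few to be tested. All 9 were low. The highest level of any member in a library, that of *Eomes* in PD800 replicate 1, was 9.32 CPM (expected counts scaled to a common library size), while the stem cell factor *Pou5f1* lay between 467 and 635 CPM.

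The sequences in front of 3 members are shown: *Sp5*, which fell, *Eomes*, which rose, and *T*, which did not pass the test. Whether these sequences bear on the direction of change was not tested. Each is the stretch of 250 bases before the RefSeq start of the gene in GRCm38.p6, written 5′ to 3′ on the strand of the gene. Capitals mark the TCF/LEF letters CTTTGAA or CTTTGAT, by which the nuclear effectors of WNT signalling bind DNA, or the same letters on the other strand (TTCAAAG or ATCAAAG).
Sp5, chr2:70474673-70474922, plus strand: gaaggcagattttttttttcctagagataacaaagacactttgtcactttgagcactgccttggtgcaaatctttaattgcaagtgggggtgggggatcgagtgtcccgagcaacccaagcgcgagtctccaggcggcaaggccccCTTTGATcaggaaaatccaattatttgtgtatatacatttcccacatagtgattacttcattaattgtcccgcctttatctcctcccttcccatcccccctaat
T, chr17:8434173-8434422, plus strand: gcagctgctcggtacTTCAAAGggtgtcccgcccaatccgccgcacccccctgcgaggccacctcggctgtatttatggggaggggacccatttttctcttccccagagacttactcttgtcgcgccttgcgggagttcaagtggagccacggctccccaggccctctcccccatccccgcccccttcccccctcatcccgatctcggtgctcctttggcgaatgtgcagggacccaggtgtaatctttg
Eomes, chr9:118477939-118478188, plus strand: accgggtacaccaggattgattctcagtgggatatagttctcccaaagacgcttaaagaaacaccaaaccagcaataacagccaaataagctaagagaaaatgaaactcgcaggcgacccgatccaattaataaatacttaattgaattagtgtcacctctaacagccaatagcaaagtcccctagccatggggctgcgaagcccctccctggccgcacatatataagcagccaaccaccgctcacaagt

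RefSeq promoters were given for 7 of the 9 members, and *Mixl1* and *Fgf8* had no entry. The TCF/LEF letters were found in the windows of 3 of the 7, namely *Sp5* (bases 104 to 98 before the RefSeq start), *T* (bases 235 to 229, on the other strand) and *Mesp1* (bases 73 to 67 on the other strand and 31 to 25). They were found in 7.48% of all 32851 promoter windows of the same length. The windows of *Eomes*, *Gsc*, *Evx1* and *Lhx1* did not hold these letters. The T-box letters TCACACC, searched on both strands, stood in 3.33% of all windows and in front of 0 of the 7 members. The gene coordinates given below come from GENCODE, whose starts differ from those of RefSeq for some members. The *Mesp1* window (79793591 to 79793840) overlaps the GENCODE gene, which starts at 79793788 on the minus strand. Both *Mesp1* matches lie inside that gene. The *Gsc* window (104473237 to 104473486) also begins inside its GENCODE gene, which starts at 104473330. A match is a stretch of letters and was not tested as a binding site.

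Sequencing depth was alike in all libraries, whose expected counts summed to 32454121 at the lowest and 38492149 at the highest. A floor of 3 counts corresponded to 0.0743 to 0.0934 CPM, and a level under it was taken as not detected. This floor and all intervals of counts cover counting error only. Of the 9 members, 5 passed edgeR's expression filter (*T*, *Mixl1*, *Eomes*, *Gsc* and *Sp5*), and a gene can pass it through 1 group alone. *Gsc*, with 1 and 6 counts at PD100, passed through PD800 alone, and *Sp5*, with 3 and 5 counts at PD800, through PD100 alone. A gene counted as called when edgeR's quasi-likelihood test put its Benjamini-Hochberg adjusted p below 0.01 and its change exceeded 2-fold. It was passed by 15.1% of the 19148 genes tested, with 6.28% higher and 8.81% lower in PD800 cells. Of the 5 tested members, 2 were called higher and 1 lower, and 2 were not called. With no fold threshold and an adjusted p under 0.05, the calls among the members were also 2 higher and 1 lower, against 22.1% and 23.6% of all tested genes (45.6% in either direction). The median log2 fold change was -0.87 over the 5 and 0.01 over all tested genes. That of the 5 is the value of *Mixl1*, which was not called, within a range from -3.68 to 3.57. When limma was run on TPM in place of counts, with pseudocounts of 1 and 0.1 before taking log2, higher genes made up 24.4% and 23.1% of all calls, against 41.6% in edgeR, and all genes together had a median of -0.12 and -0.21. A two-sided exact permutation test of 2 libraries against 2 reaches 0.333 at best, and the p-values therefore depend on the variance that edgeR estimates across genes. As bulk RNA was measured, fewer cells that express a gene and less RNA per cell cannot be told apart.

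**Figure D1:**
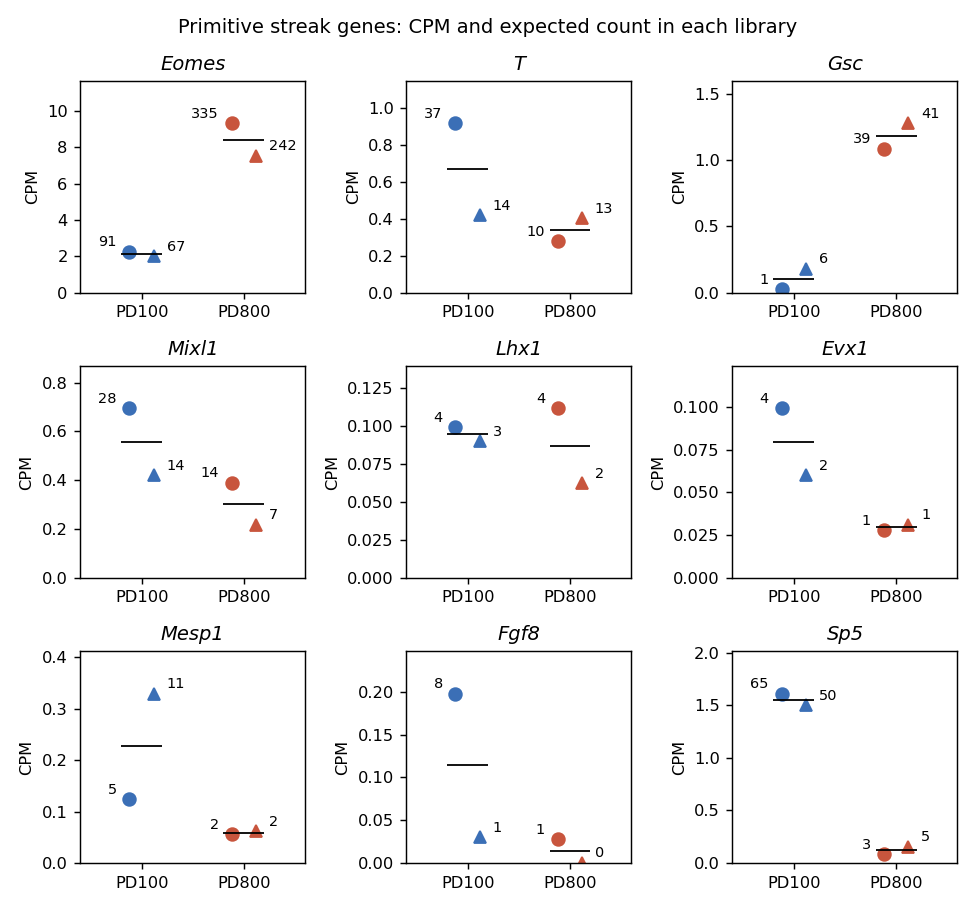
CPM of each member (vertical axes, each with its own scale from 0) in the PD100 and PD800 libraries. Circles are replicate 1, triangles replicate 2, lines the group means and the digits the expected counts. *Eomes* and *Gsc* stand higher in both PD800 libraries and *Sp5* lower, while *Lhx1* overlaps between the groups.

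Among the T-box factors, *Eomes* (ENSMUSG00000032446.14, GRCm38 chromosome 9, 118478212 to 118486132, plus strand), which specifies definitive endoderm and cardiac mesoderm and also acts in the trophoblast, had the most counts of the 9 genes. PD100 replicates 1 and 2 had 91 and 67 expected counts, and PD800 replicates 1 and 2 had 335 and 242. Mean CPM was 2.13 ± 0.175 (SD, n = 2) at PD100 against 8.43 ± 1.26 (SD, n = 2) at PD800. Both PD800 libraries lay above both PD100 libraries, and the difference was larger than the spread between replicates. edgeR's quasi-likelihood test placed the log2 fold change at 1.98 with a standard error of 0.17 (adjusted p = 0.000414). *Gm33460* overlaps the end of *Eomes* on the opposite strand, and since the strand setting of the counting is not given in the sources used here, reads of the overlap cannot be told apart. The antisense gene was given 1 and 3 counts at PD100 and 7 and 4 at PD800, few beside those of *Eomes*.

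*T* (ENSMUSG00000062327.10, GRCm38 chromosome 17, 8434423 to 8442496, plus strand), the Brachyury gene needed for mesoderm and the notochord, was lower at PD800 in its counts without passing the test. There were 37 counts in PD100 replicate 1 but 14 in replicate 2, while the PD800 libraries had 10 and 13. PD100 replicate 2 and PD800 replicate 2, at 0.419 and 0.405 CPM, were closer to each other than the PD100 replicates were. CPM values of PD100 and PD800 did not overlap for *T*, nor for any of the other 4 tested members, and the same held for 73.8% of all tested genes (37.4% with PD800 higher and 36.4% with PD800 lower). The log2 fold change of *T* was -0.996, its standard error 0.48 and its adjusted p 0.143 by edgeR's quasi-likelihood test. On counting error alone, PD800 was at 0.489 of PD100 (95% exact interval 0.285 to 0.814). The value depended on 1 library: without PD100 replicate 1 it was -0.30, and without PD100 replicate 2 it was -1.45, neither passing the threshold.

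Among the homeobox factors, *Gsc* (ENSMUSG00000021095.5, GRCm38 chromosome 12, 104471209 to 104473330, minus strand), the Goosecoid repressor of the anterior streak and the organiser, had the largest increase of the tested members. PD100 libraries held 1 and 6 of its counts and PD800 libraries 39 and 41. Mean CPM was 0.102 ± 0.110 (SD, n = 2) at PD100, with replicate 1 under the floor, and 1.18 ± 0.135 (SD, n = 2) at PD800. By edgeR's quasi-likelihood test this was a log2 fold change of 3.57 with a standard error of 0.58 (adjusted p = 0.00416). Its size rests on few PD100 counts: it was 2.69 without PD100 replicate 1 and 5.37 without PD100 replicate 2. The ratio of the summed counts, scaled for depth, was 12.4 (95% exact interval 5.74 to 31.8). *AC117194.1*, a lncRNA gene that starts 1 base away on the other strand, was at or under the floor in every library, with 0 counts in both PD100 libraries and 2 and 1 at PD800.

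*Gsc* also lies in a stretch of chromosome 12 in which many genes were called higher. Of the 40 tested genes nearest to it (20 on each side, from 102673017 to 108003602), 19 were called higher and 1 lower, and their median log2 fold change was 1.015. *Gsc* stood 2.56 above that median, and 1 of its 40 neighbours had a larger increase. For *Eomes* the 40 neighbours had a median of 0.30, with 5 called higher and 2 lower, and for *Sp5* a median of 0.16, with 1 higher and 3 lower. Copy number was not analysed here, and the part of the neighbourhood in the change of *Gsc* was not tested.

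*Mixl1* (ENSMUSG00000026497.7, GRCm38 chromosome 1, 180693043 to 180697034, minus strand), the paired-type homeobox factor of the streak, was low in all libraries, with 28 and 14 counts at PD100 against 14 and 7 at PD800. PD100 replicate 2 and PD800 replicate 1 were nearly level, at 0.419 and 0.389 CPM. Its log2 fold change was -0.87, with a standard error of 0.44, and did not pass the threshold (adjusted p = 0.162 by edgeR's quasi-likelihood test). The 40 neighbours of *Mixl1* had a median of -0.33, so that its distance from them was -0.54.

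The other homeobox members were close to the limit of detection. *Lhx1* (chromosome 11, 84518284 to 84525535, minus strand), a LIM homeobox factor of the anterior mesendoderm, gave 4 and 3 counts at PD100 against 4 and 2 at PD800, and its groups overlapped. Its ratio of PD800 to PD100 was 0.929 (95% exact interval 0.258 to 3.23), so no difference was detectable at this depth. *Evx1* (chromosome 6, 52313498 to 52318378, plus strand), which marks the posterior streak, gave 4 and 2 counts at PD100 and 1 in each library of PD800, a ratio of 0.361 (95% exact interval 0.0356 to 2.02). *Evx1os*, which overlaps *Evx1* on the opposite strand, had 3 counts in each PD100 library and 0 in both PD800 libraries, so both genes of this locus were at or near the floor throughout.

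*Mesp1* (chromosome 7, 79792241 to 79793788, minus strand), the factor of the earliest cardiovascular mesoderm, gave 5 and 11 counts at PD100 and 2 in each library of PD800. PD100 replicate 2 was the highest, at 0.330 CPM against 0.124 CPM in replicate 1. At equal depth PD100 cells had 3.69 times the counts of PD800 cells (95% exact interval 1.19 to 15.2). As a log2 ratio of PD800 to PD100 this was -1.88, and it was -2.49 without PD100 replicate 1 and -1.08 without PD100 replicate 2. *Fgf8* (chromosome 19, 45736798 to 45742915, minus strand), the FGF ligand that mesoderm cells need to leave the streak, was above the floor in 1 library alone. PD100 replicate 1 held 8 of its counts, PD100 replicate 2 and PD800 replicate 1 held 1 each, and PD800 replicate 2 had 0. The ratio of 8.31 between the summed counts had a 95% exact interval from 1.15 to 364 and rests on few counts. Its log2 ratio of PD800 to PD100, -3.05, was -1.03 without PD100 replicate 1, -3.75 without PD100 replicate 2 and -2.13 without PD800 replicate 2. These 4 genes could be tested where no expression filter was set, and none passed the threshold, with adjusted p-values from edgeR's quasi-likelihood test of 0.0919 for *Mesp1*, 0.153 for *Fgf8*, 0.567 for *Evx1* and 0.967 for *Lhx1*.

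*Sp5* (ENSMUSG00000075304.2, GRCm38 chromosome 2, 70474923 to 70477729, plus strand) had the largest decrease of the tested members. In the PD100 libraries 65 and 50 counts were found, against 3 and 5 in those of PD800. Mean CPM was 1.55 ± 0.0793 (SD, n = 2) at PD100 and 0.120 ± 0.0510 (SD, n = 2) at PD800, where replicate 1 was at the floor. The groups lay far apart relative to the replicates, and edgeR's quasi-likelihood test put the log2 fold change at -3.68 with a standard error of 0.36 (adjusted p = 0.000623). The counting interval of the fall, 6.51-fold to 31.5-fold, is wide because few PD800 counts were left.

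**Figure D2:**
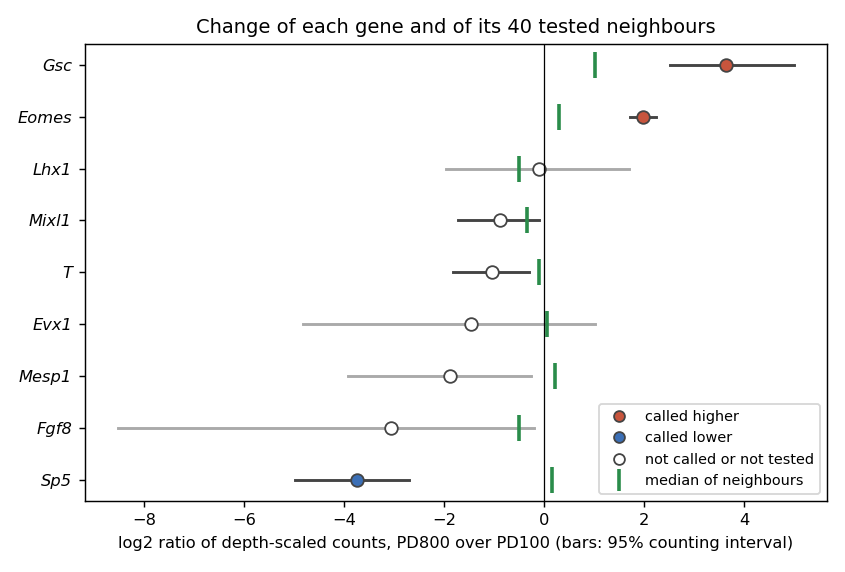
Log2 ratio of the depth-scaled summed counts of PD800 over PD100 (horizontal axis) for each member, with its 95% exact counting interval as a bar and the median log2 fold change of the 40 nearest tested genes as a green mark. *Gsc* and *Eomes* lie to the right of 0 and *Sp5* to the left. The intervals of *Lhx1* and *Evx1* include 0, and the green mark of *Gsc*, at 1.015, is the farthest of the 9 from 0.

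The make-up of the group differed accordingly. *Eomes* took 38.4% of the summed counts of the 9 genes in PD100 cells and 79.9% in PD800 cells, and *Sp5* took 27.98% and 1.11%. The sum itself was 5.03 and 6.02 CPM in the PD100 libraries and 9.74 and 11.4 CPM in the PD800 libraries. Levels between genes were compared in TPM, which RSEM scales for transcript length. In PD100 cells the order of the mean TPM was *Sp5* (0.595), *Eomes* (0.490), *T* (0.350), *Mixl1* (0.195), *Mesp1* (0.150), *Fgf8* (0.130), *Gsc* (0.0650), *Lhx1* (0.0300) and *Evx1* (0.0250), and the replicates of each gene overlapped with those of the next. In PD800 cells *Eomes* (1.62 ± 0.304 TPM, SD, n = 2) came first and *Gsc* (0.665 ± 0.0495 TPM, SD, n = 2) second. They were followed by *T* (0.150 TPM), *Mixl1* (0.0900 TPM) and *Sp5* (0.0400 TPM), while the other 4 were at 0.0300 TPM or less. The replicates of *T* and *Mixl1* came as near as 0.13 and 0.12 TPM, and those of *Mixl1* and *Sp5* as 0.06 and 0.05 TPM. With so few counts, the order of *T*, *Mixl1* and *Sp5* is not settled.

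*Slamf1*, *Arl14epl*, *Cd3e*, *Gm14327* and *Zic2* had the profiles most like that of *Eomes*. The measure was the Euclidean distance between centred log2 CPM values over the 4 libraries, which ran from 0.0214 for *Slamf1* to 0.0961 for *Zic2*, with 18952 genes ranked. With 4 libraries in 2 groups, such a likeness largely restates the difference between the groups.

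Signals that induce the streak came next. All 11 ligands and co-factors of the list (WNT, Nodal, BMP and FGF ligands and the Nodal co-receptor *Tdgf1*) were tested, of which 2 were called higher and 9 were not called, with a median log2 fold change of -0.50. *Fgf4*, the FGF ligand that mESCs make themselves, rose from 77.9 ± 3.74 to 245 ± 4.82 CPM (SD, n = 2 each), and edgeR's quasi-likelihood test gave a log2 fold change of 1.66 (adjusted p = 6.95e-05). *Gdf3*, a ligand related to Nodal, rose by 1.29 on the log2 scale (adjusted p = 0.000776 by the same edgeR test). The call of *Gdf3* was lost with limma on log2 TPM with either pseudocount (adjusted p = 0.0127 for both) and in edgeR's test against a 2-fold change (adjusted p = 0.0913). *Nodal* itself had means of 53.1 ± 4.45 and 28.5 ± 0.514 CPM (SD, n = 2 each) at PD100 and PD800, a log2 fold change of -0.90 that was under 2-fold (adjusted p = 0.000669 by edgeR). On the log2 TPM scale *Nodal* was called lower by limma with either pseudocount, 1 or 0.1, at -1.05 and -1.12. *Wnt3a* was at 0.809 ± 0.128 and 0.260 ± 0.104 CPM (SD, n = 2 each) and missed the threshold in edgeR's test (adjusted p = 0.0172). Of 14 alternative ways of processing, 10 also left *Wnt3a* not called, and in the rest it was called lower. *Nodal* and *Wnt3a* were named after their values had been seen.

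Secreted inhibitors of these signals had the lowest median of the lists of streak pathway genes, -3.28. Of 7 tested, 4 were called lower and 1 higher, and *Cer1* had 0 counts in all 4 libraries. *Lefty1*, the Nodal antagonist that Nodal signalling itself switches on, fell from 45.8 ± 3.51 to 2.47 ± 0.165 CPM (SD, n = 2 each), with a log2 fold change of -4.20 (adjusted p = 3.03e-05 by edgeR's quasi-likelihood test). *Nog*, the BMP antagonist Noggin, went from 157 and 130 counts to 3 and 4, and *Dkk1*, an inhibitor of WNT receptors, from 137 and 107 to 2 and 8. Their log2 fold changes were -5.19 and -4.45, and that of *Dkk1*, not called on log2(TPM + 1), was -3.71 without PD800 replicate 1 and -5.81 without PD800 replicate 2. The other calls, named after their values had been seen, were *Lefty2* (-3.28) and *Notum* (2.40), an enzyme that inactivates WNT proteins and was the one inhibitor called higher.

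Among receptors and nuclear effectors, 2 of 16 were called lower and 14 were not called, with a median of -0.09. The WNT co-receptor *Lrp5* had means of 53.5 ± 5.59 CPM at PD100 and 17.3 ± 0.103 CPM at PD800 (SD, n = 2 each), with a log2 fold change of -1.63 (adjusted p = 0.000130 by edgeR's quasi-likelihood test). *Tcf7*, one of the TCF/LEF factors, was close to the threshold, at -1.20 with an adjusted p of 0.00953 in edgeR's test. The call of *Tcf7* was lost without PD100 replicate 1 (-0.85) and without PD800 replicate 2 (-0.99), and also with DESeq2 size factors in edgeR (adjusted p = 0.01002), with limma on log2 TPM at a pseudocount of 1 or 0.1 (0.0290 or 0.0255) and in the 2-fold test (0.528). Of 7 tested WNT targets other than *Sp5*, 2 were called lower and 5 were not called, with a median of -0.98. *Rnf43*, a ligase that removes WNT receptors, was at 2.13 ± 0.347 and 0.716 ± 0.0887 CPM (SD, n = 2 each), a log2 fold change of -1.57 (adjusted p = 0.00383 in edgeR's test, and 0.0153 or 0.0237 without PD800 replicate 1 or 2). *Rnf43* also lost its call on log2(TPM + 1), where its change was under 2-fold, and in edgeR's 2-fold test (adjusted p = 0.0870). *Cdx2*, named after its values had been seen, was the other (-1.44), and its call was lost in edgeR's test without PD100 replicate 1 (adjusted p = 0.0136) and without PD800 replicate 1 or 2 (0.0564 or 0.0312). With all libraries, the call of *Cdx2* was also lost with DESeq2 (adjusted p = 0.0345), with limma on log2 TPM at a pseudocount of 1 or 0.1 (0.0162 or 0.0128) and in edgeR's test against a 2-fold change (0.215).

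Of 13 tested genes of the mesoderm list, 6 were called lower and 1 higher, and the median was -1.60. *Cyp26a1*, which breaks down retinoic acid, went from 286 and 254 counts at PD100 to 7 in each library of PD800, a log2 fold change of -5.13 (adjusted p = 5.37e-05 by edgeR's quasi-likelihood test). *Hand1*, a factor of lateral and extraembryonic mesoderm, fell (-2.92), as did *Snai1* (-2.41, named after its values had been seen), the repressor that cells of the streak use to leave the epithelium. *Nkx1-2*, a homeobox gene, rose by 2.68 on the log2 scale, from 0.262 ± 0.117 to 1.74 ± 0.174 CPM (SD, n = 2 each). *Msgn1* had 0 counts in all 4 libraries. The calls of *Snai1* and *Nkx1-2* were lost in edgeR's test against a 2-fold change (adjusted p = 0.0159 and 0.0121) and with limma on log2(TPM + 1).

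Of 6 tested genes of the definitive endoderm and the node, 2 were called lower and 1 higher, with a median of -0.21. *Sox17* fell from 17.5 ± 0.147 to 0.265 ± 0.0210 CPM (SD, n = 2 each), a log2 fold change of -6.03. *Foxa2* dropped from 230 and 147 counts to 1 in each library of PD800, a ratio of 174 between the summed counts (95% exact interval 47.8 to 1442). *Foxa1*, the call in the other direction and named after its values had been seen, went from 3 and 1 counts to 15 and 13. Its log2 fold change of 2.85 was 3.63 without PD100 replicate 1, and its call was lost in edgeR's test without PD100 replicate 2 (adjusted p = 0.0137) and without PD800 replicate 1 or 2 (0.0306 or 0.0245). It was lost too with DESeq2 (adjusted p = 0.0437), with limma at either pseudocount (0.0844 or 0.0239) and in the 2-fold test of edgeR (0.0459). *Eomes* and *Gsc* were thus higher in the same libraries in which *Sox17* and *Foxa2*, which are also genes of the primitive endoderm, were lower.

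**Figure D3:**
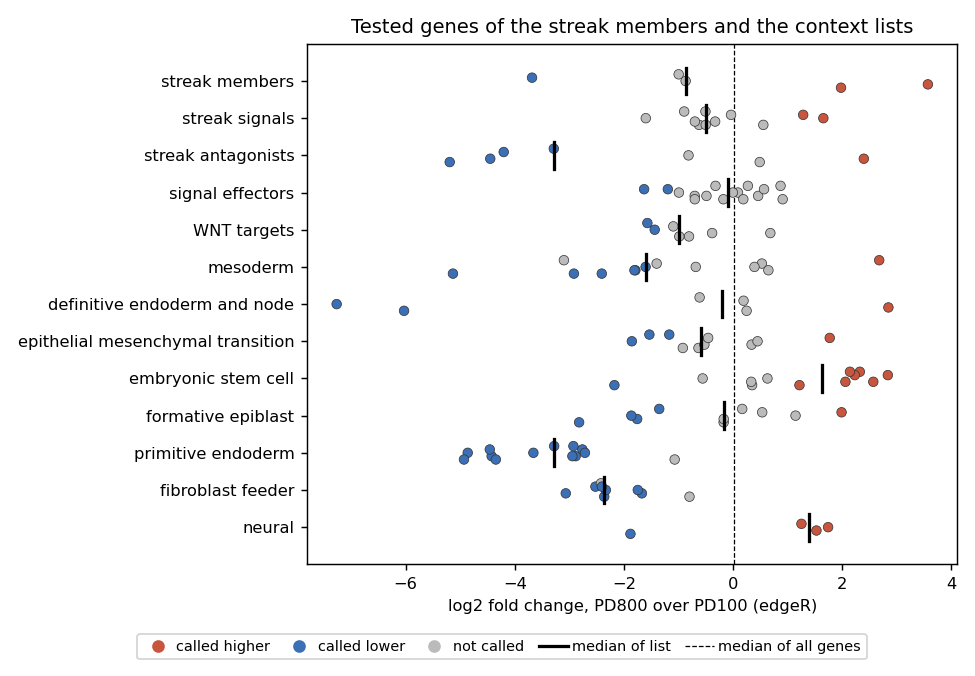
Log2 fold change of PD800 over PD100 from edgeR (horizontal axis) of each tested gene, by list. Red points were called higher, blue points lower and grey points not called, thick lines are list medians and the dashed line is the median of all tested genes, at 0.01. The 5 tested members spread from -3.68 to 3.57, and the medians of the primitive endoderm list (-3.28) and of the stem cell list (1.64) lie on opposite sides of 0.

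Markers of cell identity were read beside these results. The labelled cell type was present in both groups: of *Pou5f1*, *Sox2*, *Nanog* and *Zfp42* in the 4 libraries, the lowest value was that of *Nanog* in PD100 replicate 2, at 85.6 CPM. Of 12 stem cell genes, 7 were called higher and 1 lower, with a median of 1.64, and the named ones were *Klf4* (2.84), *Prdm14* (2.57) and *Nanog* (2.32). The gene called lower was *Dppa3* (-2.17), while *Klf2* (-0.56), *Sox2* (0.63), *Pou5f1* (0.35) and *Zfp42* (0.33) were not called, and these 5 were named after their values had been seen. Among 10 formative epiblast genes, from the stage that comes before the streak, 4 were called lower and 1 higher, with *Pou3f1* at -2.82, *Dnmt3b* at -1.76 and *Zic2* at 1.99, and the median was -0.17. Of 10 genes of the epithelial to mesenchymal transition, 3 were called lower and 1 higher, and the median was -0.58. *Epcam* (-1.85) and *Ocln* (-1.53), which hold epithelial cells together, fell. Of the repressors of epithelial genes, *Zeb1* (1.77) rose and *Zeb2* (-1.17) fell, the latter call being lost in edgeR's test without PD800 replicate 1 or 2 (adjusted p = 0.0128 or 0.0115), with limma at either pseudocount (0.0119 or 0.0133) and in the 2-fold test of edgeR (0.382). The others were not called, namely the epithelial cadherin *Cdh1* (-0.63), the mesenchymal genes *Cdh2* (-0.52), *Fn1* (-0.46) and *Vim* (0.45), and the factors *Snai2* (-0.92) and *Twist1* (0.34). These 6 and *Zeb2* were named after their values had been seen.

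Markers of other cells differed between the groups as well. Primitive endoderm genes were called lower for 12 of 13, among them *Pdgfra* (-4.93), *Col4a2* (-4.86) and *Cubn* (-4.46). Their summed levels were 3248 and 3664 CPM at PD100 against 326 and 337 CPM at PD800. Of 10 fibroblast markers, 9 were tested and 7 called lower, and they summed to 98.6 and 121 CPM at PD100 against 20.9 and 23.0 CPM at PD800. *Col1a1*, *Col3a1* (not called on log2(TPM + 1)) and *Acta2* were at -3.07, -2.52 and -2.36, and *Lum* had 1 count in PD800 replicate 2 and 0 elsewhere. Fibroblasts served as feeders when the line was grown, though by the study's methods the cells taken for experiments were free of feeders. Of 8 neural genes, 4 were tested, of which 3 were called higher and 1 lower, with *Sox1* at 1.74, *Pax6* at 1.53 and *Nes* at -1.88. Without PD800 replicate 2, *Pax6* lost its call in edgeR's test (adjusted p = 0.0137). The calls of *Sox1* and *Pax6* were also lost in edgeR's 2-fold test (adjusted p = 0.0278 and 0.0626) and with limma on log2(TPM + 1), and that of *Sox1* on log2(TPM + 0.1) as well (adjusted p = 0.0154 from limma). The neural genes summed to 113 and 136 CPM at PD100 against 117 and 122 CPM at PD800. How far cells of these kinds had a part in the levels of the streak genes was not tested.

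Each tested member kept its direction under every way of processing in which it was tested. On the log2 scale *Eomes* lay between 0.81 and 2.12, *Gsc* between 0.65 and 5.37, *Sp5* between -4.17 and -0.62, *T* between -1.45 and -0.22 and *Mixl1* between -1.35 and -0.13. The values nearest to 0 came from limma on log2(TPM + 1), a scale that understates the change of genes with low TPM. There *Eomes*, *Gsc* and *Sp5* were at 0.81, 0.65 and -0.62, with adjusted p-values of 0.00878, 0.00381 and 0.00317 from limma's test, and did not pass the fold threshold. *Gsc* also lost its call in edgeR's test against a 2-fold change (adjusted p = 0.0226).

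**Figure D4:**
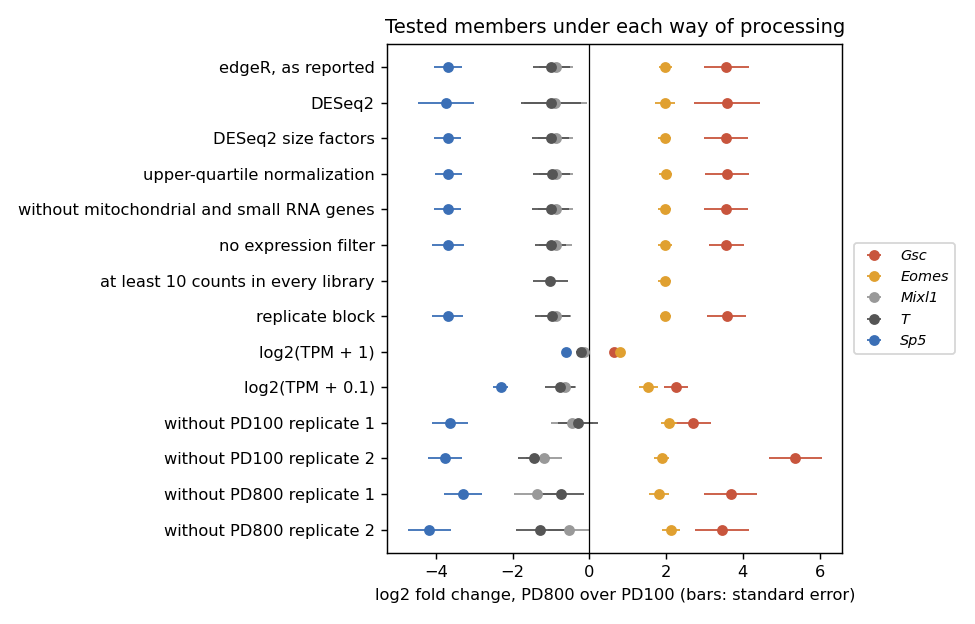
Log2 fold change of PD800 over PD100 (horizontal axis, bars are standard errors) of the 5 tested members under each test, normalisation, filter, scale and left-out library (vertical axis). *Gsc* and *Eomes* stay to the right of 0 and *Sp5*, *T* and *Mixl1* to the left, *Gsc* moves most, between 0.65 and 5.37, and a filter of 10 counts in every library leaves *Eomes* and *T* alone.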

How the data were processed

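RNA of DKO741 cells at PD100 and PD800 was measured in 2 libraries each, grouped by their labels. The authors mapped read pairs to mm10 (STAR 2.5.3a) and deposited an expected count per gene and library from RSEM 1.3.0, an estimate not corrected for depth in which a read with several possible genes is shared out. The deposited TPM values were scaled by RSEM for transcript length and to an equal library total. Software versions come from the submitters' processing notes, which also list DESeq2 1.18.1. The annotation release and strand setting are not given in the sources used here. Of 53379 gene identifiers, 53274 matched GENCODE M21 (GRCm38), the source of coordinates and neighbouring genes.

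After rounding, expected counts went into edgeR 4.0.16 under R 4.3.3. Low genes were removed by filterByExpr (minimum count 10), libraries were scaled by TMM, and the quasi-likelihood test was adjusted by Benjamini-Hochberg over 19148 genes. Calls needed an adjusted p below 0.01 and more than a 2-fold change. CPM used TMM-scaled totals, and ratios of summed counts were given exact (Clopper-Pearson) 95% intervals. The steps were tested on simulated data. Alternatives were DESeq2 1.42.0, its size factors, upper-quartile scaling, removal of mitochondrial and small RNA genes, other filters and thresholds, a replicate block, limma 3.58.1 on log2 TPM with pseudocounts of 1 and 0.1, and leaving out each library.

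The members and gene lists were chosen with earlier results of these data known. Named were all members and, per list, up to 3 called genes with the largest change and a mean of at least 1 CPM, or the most abundant tested gene where none was called, and the 5 profiles nearest to that of *Eomes*.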

Additional observations from a re-analysis of the deposited data

How the results depend on the processing

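The 2 higher and 1 lower calls among the streak members were kept in number with DESeq2, DESeq2 size factors, upper-quartile normalisation, removal of mitochondrial and small RNA genes, no expression filter, log2(TPM + 0.1), an adjusted p under 0.05 with no fold threshold, and without any 1 of the libraries, where a lone library is assumed to vary like the others. With at least 10 counts in every library, 1 member was called higher and 0 lower in edgeR's test, because *Gsc* and *Sp5* do not pass that filter. With limma on log2(TPM + 1), 0 were called higher and 0 lower, although *Eomes*, *Gsc* and *Sp5* had adjusted p-values under 0.01 there. A test against a 2-fold change left 1 higher, without *Gsc* (adjusted p = 0.0226 by edgeR). In the context lists, 17 genes were higher and 44 lower. The number higher was 10 with log2(TPM + 1) and with the test against a 2-fold change, and 27 at an adjusted p under 0.05. Over all genes, 1202 were higher and 1686 lower, against 297 and 920 with log2(TPM + 1), 386 and 685 with the test against a 2-fold change, and 4224 and 4515 at an adjusted p under 0.05, and 533 were higher with log2(TPM + 0.1). Leaving out a library gave between 880 and 1514 higher and between 1274 and 1893 lower. No fitted log2 fold change of a gene for which these alternatives were run changed sign, and 58 of these values lost a call, most often for *Cdx2*, *Foxa1* and *Tcf7*, while 15 gained one. Of the untested members, the log2 count ratio of *Lhx1* turned from -0.11 to 0.23 without PD800 replicate 2, and *Fgf8* gave no value without PD800 replicate 1.

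Deviations of same-numbered libraries were correlated across genes (0.265), but with 2 pairs the labels give no more than a shared number. With the replicate number as a block, 2 members were higher and 1 lower, 18 and 48 genes of the context lists, and 1461 and 1956 of all genes, and *Wnt3a* passed the threshold (adjusted p = 0.00795 by edgeR). Depth limits *Evx1*, *Lhx1*, *Mesp1* and *Fgf8*, of which no library held more than 11 counts.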
